A study of Homo sapiens with 24 samples.

Results

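GJA1, GJB2, GJB5 and GJB6 are 4 connexin genes, the building blocks of gap junctions. They were taken by symbol from a table of read counts for 26364 human genes, which also holds 16 other connexin genes. The series measured mRNA in nTERT-1 cells, an immortalised human keratinocyte line. The genotypes were KAT2A_KD, KAT2B_KD and KAT2AB_KD, knockdowns of one or both of the paralogous histone acetyltransferases KAT2A and KAT2B, and NT, the set they were compared with. Each genotype was sequenced in the Subconfluent, Confluent and Differentiated state, with 2 libraries in each of the 12 groups and 24 libraries in all. The labels put all 24 libraries under keratinocyte differentiation as the treatment, and a deposited sample table puts the Differentiated stage at day 4. What NT abbreviates and how the knockdowns were made is not given in the labels. Nor is it said whether the libraries of a group were grown as separate cultures, so every p-value measures the spread between libraries, which may be technical.

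Library totals ran from 8010178 to 16054003 counts, and log2 CPM of the libraries of a group correlated at 0.963 to 0.981. CPM are read counts scaled to a common library size with TMM factors. KAT2A stood at 1.67 to 10.4 CPM in the 12 KAT2A_KD and KAT2AB_KD libraries, against 10.0 to 38.5 CPM in the 6 NT libraries, and lay below both NT libraries of its own stage each time. KAT2B itself rose with differentiation. Before that it stood at 0.152 to 1.25 CPM in KAT2B_KD and 0.902 to 2.96 CPM in KAT2AB_KD, against 4.06 to 5.58 CPM in NT. At the Differentiated stage KAT2B_KD had 4.58 and 8.59 CPM, KAT2AB_KD 5.85 and 18.9 CPM and NT 44.8 and 40.4 CPM. In edgeR's test, described below, KAT2A passed as lower than NT in Subconfluent and Confluent KAT2A_KD and KAT2AB_KD cells (adjusted p under 0.05). KAT2B passed as lower in KAT2B_KD Differentiated cells. KAT2A in KAT2A_KD Differentiated cells did not pass (0.139). Nor did KAT2B in KAT2B_KD Subconfluent (0.0689), KAT2B_KD Confluent (0.220) or KAT2AB_KD Subconfluent cells (0.117). The keratinocyte keratins KRT5 and KRT14 stood at 7108 to 22332 and 5285 to 25999 CPM. Of 5 immune markers CD3E had no read in any library, while CD68 stood at 13.8 to 60.9 and CD14 at 0.396 to 13.9 CPM. Of 6 melanocyte markers TYR had no read, while PMEL reached 8.30 and MITF 11.7 CPM. The 2 NT Confluent libraries stood apart in 5 interferon-induced genes (MX1, MX2, IFIT1, IFIT3 and IFI44), whose summed level was 616 to 649.7 CPM there and 15.3 to 295 CPM in the other 22 libraries. Its part in the comparisons with NT at that stage was not tested.

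Connexins cross the membrane and assemble into rings, called connexons, and a connexon docked to one in a neighbouring cell forms a channel that passes ions and small metabolites. Beta connexins such as GJB2 and GJB6 can mix within a channel, and which connexins a cell makes sets what its channels pass. In human epidermis GJA1 is the connexin of the living layers. GJB2 and GJB6 are kept low between the appendages of resting skin and rise in wounds and in hyperproliferative skin. Inherited changes in GJB2 or GJB6 cause deafness, thickened skin of palms and soles, or both.

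The promoters of the members differ in composition, and are shown because the knockdowns target acetyltransferases that act at promoters. RefSeq entries on GRCh38.p14 matched 3 of the 4 members, each from 250 bases before to 50 bases after the start. GJA1 lies on the plus strand at chr6:121435396-121435695. GJB2 and GJB6 lie on the minus strand, side by side, at chr13:20192889-20193188 and chr13:20230929-20231228, in the gene order GJA3, GJB2, GJB6, CRYL1. GJB5 lies on chromosome 1. Each sequence is written 5′ to 3′ on the gene's strand, and capitals mark matches on either strand to TGANTCA (the AP-1 motif), GGGCGG (the GC box) or AACCNGTT (the motif of grainyhead factors). The 3 motifs share no letters at any match shown.
GJA1: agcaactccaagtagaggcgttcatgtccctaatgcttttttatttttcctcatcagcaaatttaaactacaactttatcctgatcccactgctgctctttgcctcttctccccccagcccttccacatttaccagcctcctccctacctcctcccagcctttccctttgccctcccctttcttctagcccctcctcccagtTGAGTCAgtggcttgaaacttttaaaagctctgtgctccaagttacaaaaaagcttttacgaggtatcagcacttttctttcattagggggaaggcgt
GJB2: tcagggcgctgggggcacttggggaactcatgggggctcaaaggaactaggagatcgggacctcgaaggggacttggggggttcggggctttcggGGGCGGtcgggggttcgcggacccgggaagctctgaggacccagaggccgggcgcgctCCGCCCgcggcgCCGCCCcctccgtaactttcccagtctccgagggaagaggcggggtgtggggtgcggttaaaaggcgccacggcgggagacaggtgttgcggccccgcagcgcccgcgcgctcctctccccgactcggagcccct
GJB6: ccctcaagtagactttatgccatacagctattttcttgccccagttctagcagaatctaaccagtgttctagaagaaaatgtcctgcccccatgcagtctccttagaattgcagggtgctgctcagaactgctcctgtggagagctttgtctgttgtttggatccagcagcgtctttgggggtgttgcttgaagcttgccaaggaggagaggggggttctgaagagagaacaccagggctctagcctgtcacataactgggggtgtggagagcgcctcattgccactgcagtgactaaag

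GJA1 holds 1 TGANTCA match, which starts 48 bases before the start, and 7.71% of 35116 promoters of that length hold this motif. GJB2 holds 3 GGGCGG matches, 155, 97 and 85 bases before the start, and 45% of promoters hold that motif. GJB6 holds none of the 3 motifs, and AACCNGTT, found in 1.73% of promoters, is in none of the 3 sequences. The GJB2 promoter has 33 CpG dinucleotides and a GC content of 71.7%. Those of GJA1 and GJB6 have 3 and 2 CpG at a GC content of 47.0% and 51.3%. Of all promoters, 82.8% have fewer CpG than GJB2, 18.2% fewer than GJA1 and 11% fewer than GJB6. A match describes letters in this window and says nothing of binding.

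GJA1, the connexin of the living epidermal layers, was higher in every Confluent than in every Subconfluent library by a small margin, and rose steeply with differentiation in all 4 genotypes. At the Subconfluent stage its level was 92.1 and 92.2 CPM in KAT2A_KD, 80.3 and 65.9 CPM in KAT2B_KD and 79.5 and 71.2 CPM in KAT2AB_KD, against 93.2 and 92.3 CPM in NT. At the Confluent stage it was 118 and 101 CPM in KAT2A_KD, 100.7 and 96.8 CPM in KAT2B_KD and 130.4 and 117 CPM in KAT2AB_KD, against 111 and 101 CPM in NT. At the Differentiated stage it was 2189 and 1629 CPM in KAT2A_KD, 2049 and 2009.6 CPM in KAT2B_KD and 1383 and 1186 CPM in KAT2AB_KD, against 1437 and 1706 CPM in NT. Every Differentiated library lay far above every library of the earlier stages, and among the Differentiated libraries both KAT2AB_KD values were the lowest. The rise over the Confluent stage was 17.4-fold in KAT2A_KD, 20.5-fold in KAT2B_KD, 10.4-fold in KAT2AB_KD and 14.8-fold in NT, where the log2 fold change was 3.89 ± 0.22 (SE).

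GJB2, the beta connexin most often changed in inherited deafness, rose along the series, and at each stage every knockdown library lay above both NT libraries. At the Subconfluent stage its level was 385 and 377 CPM in KAT2A_KD, 436 and 393 CPM in KAT2B_KD and 400.3 and 321 CPM in KAT2AB_KD, against 201 and 260.0 CPM in NT. At the Confluent stage it was 638 and 534 CPM in KAT2A_KD, 568 and 648 CPM in KAT2B_KD and 753 and 762 CPM in KAT2AB_KD, against 379 and 318 CPM in NT. At the Differentiated stage it was 3414 and 2635 CPM in KAT2A_KD, 2484 and 2328 CPM in KAT2B_KD and 2500.3 and 2586 CPM in KAT2AB_KD, against 1973 and 2216 CPM in NT. The knockdown libraries thus lay above NT by the widest margin, as a ratio, before differentiation. Differentiated cells exceeded Confluent cells 5.16-fold in KAT2A_KD, 3.96-fold in KAT2B_KD, 3.36-fold in KAT2AB_KD and 6.01-fold in NT (log2 2.59 ± 0.22 in NT).

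GJB6, which partners GJB2 in the inner ear and in epidermis, had the steepest rise of the 4 genes in NT. At the Subconfluent stage its level was 25.3 and 24.4 CPM in KAT2A_KD, 23.5 and 23.8 CPM in KAT2B_KD and 30.7 and 26.0 CPM in KAT2AB_KD, against 14.4 and 15.5 CPM in NT. At the Confluent stage it was 51.4 and 47.6 CPM in KAT2A_KD, 47.1 and 59.2 CPM in KAT2B_KD and 59.5 and 70.5 CPM in KAT2AB_KD, against 27.3 and 26.9 CPM in NT. At the Differentiated stage it was 1079 and 1259 CPM in KAT2A_KD, 947 and 809 CPM in KAT2B_KD and 1007 and 1422 CPM in KAT2AB_KD, against 774 and 1241 CPM in NT. All 6 knockdown libraries lay above both NT libraries at the first 2 stages, while at the Differentiated stage the NT libraries spanned most of the range and 2 of 6 lay above both. Differentiated cells exceeded Confluent cells 23.6-fold in KAT2A_KD, 16.5-fold in KAT2B_KD, 18.7-fold in KAT2AB_KD and 37.1-fold in NT (log2 5.21 ± 0.27 in NT).

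GJB5, a beta connexin of stratified epithelia, stayed within a narrow band. At the Subconfluent stage its level was 30.1 and 25.9 CPM in KAT2A_KD, 39.3 and 30.5 CPM in KAT2B_KD and 30.3 and 24.9 CPM in KAT2AB_KD, against 35.2 and 35.8 CPM in NT. At the Confluent stage it was 41.5 and 33.0 CPM in KAT2A_KD, 47.8 and 37.4 CPM in KAT2B_KD and 35.3 and 38.2 CPM in KAT2AB_KD, against 55.7 and 41.6 CPM in NT. At the Differentiated stage it was 72.1 and 46.9 CPM in KAT2A_KD, 39.9 and 36.5 CPM in KAT2B_KD and 70.5 and 46.9 CPM in KAT2AB_KD, against 49.1 and 50.3 CPM in NT. All stages overlapped, and at the Differentiated stage 1 library each of KAT2A_KD and KAT2AB_KD stood above the other 6. Differentiated and Confluent cells differed by a log2 fold change of 0.67 ± 0.24 in KAT2A_KD (edgeR adjusted p = 0.0270) and 0.68 ± 0.24 in KAT2AB_KD (0.0242), both under the threshold of 0.05. The values of −0.16 ± 0.24 in KAT2B_KD (0.637) and 0.03 ± 0.24 in NT (0.920) did not pass it. Neither of the calls held up to leaving out a library: adjusted p was 0.340 and 0.191 without KAT2A_KD Differentiated replicate 1 or Confluent replicate 2. In KAT2AB_KD it was 0.111, 0.0644 and 0.260 without Confluent replicate 1, Confluent replicate 2 or Differentiated replicate 1.

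**Figure D1:**
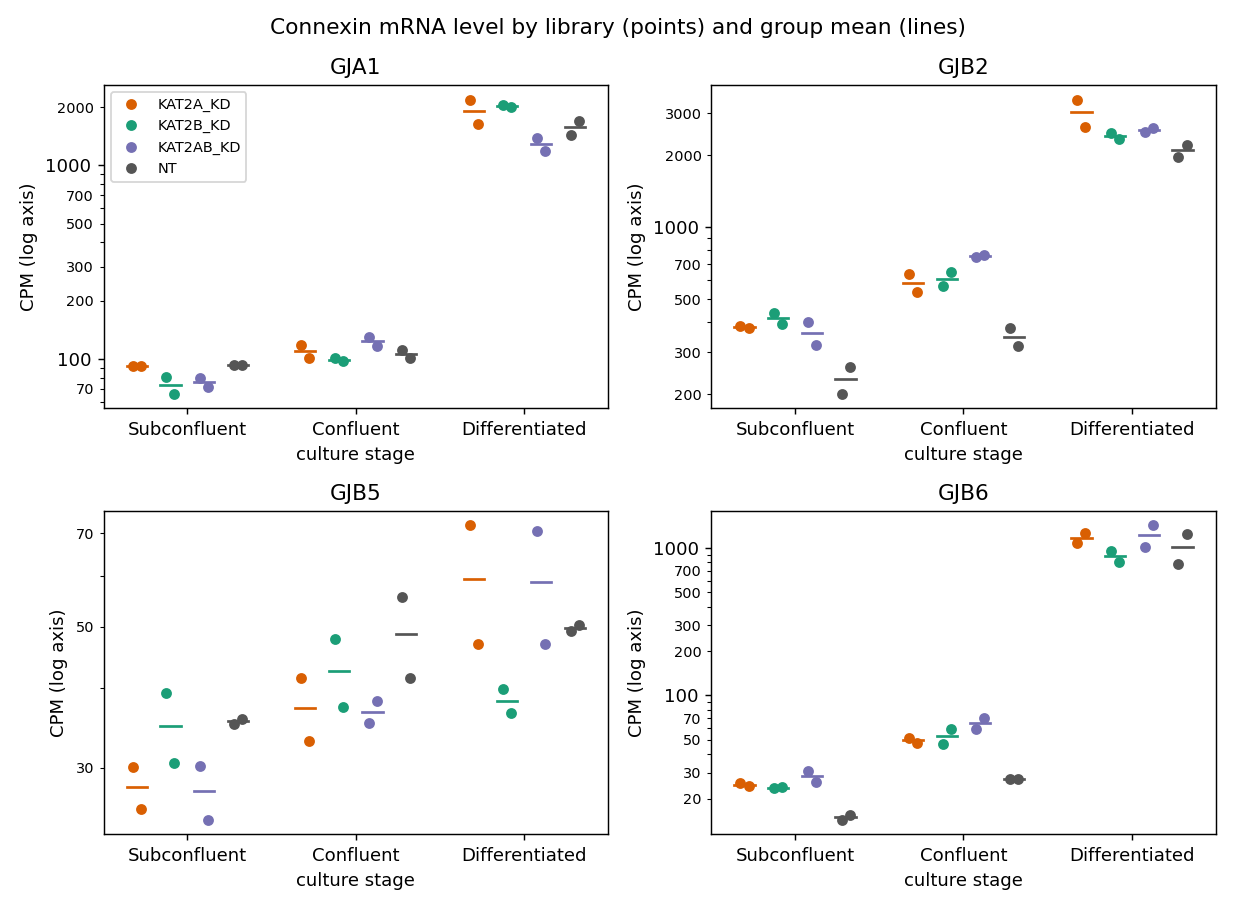
The level of each connexin in CPM (log axis) in every library, by culture stage and genotype; points are the 2 libraries of a group and lines their mean. GJA1, GJB2 and GJB6 jump at the Differentiated stage, the NT points of GJB2 and GJB6 lie lowest in the first 2 stages, and GJB5 stays between 24.9 and 72.1 CPM.

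A gene passed where its adjusted p, by edgeR's quasi-likelihood test with Benjamini-Hochberg adjustment over the 15757 genes tested, was under 0.05. Between Differentiated and Confluent cells 3 of the 4 connexins (GJA1, GJB2 and GJB6) passed as higher in KAT2B_KD and in NT, and all 4 in KAT2A_KD and KAT2AB_KD. Of all genes tested, 21.4% in KAT2A_KD, 19.3% in KAT2B_KD, 22.6% in KAT2AB_KD and 24.3% in NT passed as higher. For GJA1, GJB2 and GJB6 the 12 adjusted p-values ran up to 1.61e-06, and each passed with any single library of its comparison left out. The smallest of the log2 values with a library left out was 3.29 for GJA1, 1.72 for GJB2 and 3.90 for GJB6, all 3 well clear of 0. The median over the 4 connexins was 3.25 in KAT2A_KD, 3.02 in KAT2B_KD, 2.56 in KAT2AB_KD and 3.24 in NT, while the median over all genes lay between −0.02 and 0.00. In libraries of bulk RNA a change in the share of cells that make a transcript and a change in RNA per cell cannot be told apart. Markers of other cell types moved with the stage too. The summed level of 7 fibroblast markers was 31.9 to 53.7 CPM in Differentiated libraries and 1.64 to 7.56 CPM in Confluent ones. COL1A1 reached 51.1 CPM and COL1A2 1.75 CPM, and COL3A1, DCN, LUM, PDGFRA and PDGFRB stayed under 1 CPM. Only 2 fibroblast markers were tested, and 1 passed as higher in every genotype. The sum of 5 immune markers was 31.5 to 68.5 CPM in Differentiated and 17.2 to 27.2 CPM in Confluent libraries, and CD68 passed as higher in every genotype. The sum of 6 melanocyte markers was 4.04 to 12.6 CPM in Differentiated and 2.75 to 8.93 CPM in Confluent libraries, and PMEL passed as higher in every genotype. Only 2 melanocyte markers were tested, and in KAT2A_KD the other one passed as lower. The part of these marker changes in the connexin differences was not tested.

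Set per kilobase of transcript, which allows a comparison between genes, the order of the connexins changed with stage in NT. In NT Subconfluent cells GJB2 had 97.5 ± 17.7 CPM per kilobase, GJA1 29.4 ± 0.207, GJB5 26.2 ± 0.307 and GJB6 7.0 ± 0.349 (SD, n = 2 each). In NT Confluent cells the per-length levels were 147 ± 18.1 for GJB2, 35.9 ± 7.35 for GJB5, 33.6 ± 2.11 for GJA1 and 12.7 ± 0.137 for GJB6. In NT Differentiated cells they were 887 ± 72.7 for GJB2, 498 ± 60.3 for GJA1, 472 ± 155 for GJB6 and 36.7 ± 0.583 for GJB5. GJB2 led at every stage, GJB6 moved out of last place, and GJB5 was last after differentiation. GJA1 and GJB5 in Confluent cells, and GJA1 and GJB6 in Differentiated cells, lay within the spread of each other.

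Ordered over the 12 groups, the Differentiated groups held the 4 highest means of GJA1, GJB2 and GJB6, above the Confluent and then the Subconfluent groups, with exceptions among the lower groups. For GJB2 all 3 Subconfluent knockdown means, the lowest of which was 361 ± 56.0 CPM in KAT2AB_KD, lay above the NT Confluent mean of 348 ± 42.7 CPM (SD, n = 2 each). For GJB6 the KAT2AB_KD Subconfluent mean of 28.3 ± 3.27 CPM lay above the NT Confluent mean of 27.1 ± 0.293 CPM. Neither of these neighbouring pairs differed beyond its spread. For GJA1 the top groups were KAT2B_KD Differentiated at 2029 ± 27.8 CPM and KAT2A_KD Differentiated at 1909 ± 396 CPM, whose libraries overlapped. For GJB5 only 1 step in the order, between KAT2A_KD and KAT2B_KD Subconfluent, had libraries that did not overlap.

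Confluent and Subconfluent cells differed less, and by edgeR the calls were in the beta connexins GJB2 and GJB6. Of all genes tested, 0.235% passed in either direction in KAT2A_KD, 1.61% in KAT2B_KD, 0.609% in KAT2AB_KD and 0.901% in NT. These are 37, 254, 96 and 142 genes, and with 1 library left out there were 5 to 44, 76 to 92, 20 to 41 and 40 to 91. GJB6 rose in Confluent over Subconfluent KAT2B_KD cells (log2 1.17, adjusted p = 0.0110) and KAT2AB_KD cells (1.20, 0.0174), and GJB2 rose in KAT2AB_KD cells (1.07, 0.0185). Each of these 3 calls was lost in fits with 1 library left out, which leave 1 library in that group. GJB6 in KAT2B_KD lost its call without Subconfluent replicate 1, Subconfluent replicate 2 or Confluent replicate 2. Its log2 values over all 4 fits were 0.98 to 1.32. GJB2 in KAT2AB_KD lost its call whichever of its 4 libraries was left out (log2 0.92 to 1.24). GJB6 there lost it without Subconfluent replicate 1, Subconfluent replicate 2 or Confluent replicate 2 (1.08 to 1.32 over all 4 fits). Why these calls were lost was not tested. GJA1 in KAT2AB_KD had a log2 value of 0.71 ± 0.20 (adjusted p = 0.132) that passed by DESeq2 (0.72, 0.00366), which called 3 connexins there; in the other 3 genotypes its log2 values by edgeR were 0.19 to 0.43. In KAT2A_KD and in NT no connexin passed by edgeR, while 2 in each had an unadjusted p under 0.05 and 2 in each passed by DESeq2. Of all genes 984 and 1827 had an unadjusted p that low, and DESeq2 called 142 and 353, beside 227 in KAT2AB_KD. The log2 values of GJB6 were 0.99 in KAT2A_KD (0.0907) and 0.86 in NT (0.102), and those of GJB2 were 0.62 in KAT2A_KD (0.393) and 0.60 in NT (0.227). Whether the genotypes differ in this step was tested directly, and 0% of genes passed by edgeR in any of the 3 differences from NT. At an unadjusted p under 0.05 there were 391, 381 and 869 such genes in KAT2A_KD, KAT2B_KD and KAT2AB_KD, and DESeq2 called 1, 2 and 0.

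The knockdowns set against NT, averaged over the 3 stages, were higher in GJB2 throughout and in GJB6 in KAT2A_KD and KAT2AB_KD, while GJA1 and GJB5 lay nearer to 0. The 3 comparisons share the NT libraries. GJB2 was higher by a log2 fold change of 0.67 in KAT2A_KD (95% interval 0.42 to 0.92, adjusted p = 0.00416), 0.62 in KAT2B_KD (0.37 to 0.87, 0.00661) and 0.68 in KAT2AB_KD (0.43 to 0.93, 0.00107). All 3 values of GJB2 passed with any single library left out, at an adjusted p of up to 0.0358. GJB6 was higher by 0.61 in KAT2A_KD (0.33 to 0.88, 0.0178) and by 0.82 in KAT2AB_KD (0.54 to 1.10, 0.000490). In KAT2B_KD its 0.48 (0.20 to 0.76, 0.0617) missed the threshold. The KAT2A_KD value of GJB6 missed it without KAT2A_KD Subconfluent replicate 1 (0.0617), NT Subconfluent replicate 1 (0.0578) or NT Confluent replicate 1 (0.0554), and the KAT2B_KD value passed without NT Differentiated replicate 2 (0.0159). So 2 of 4 connexins passed as higher in KAT2A_KD, 1 in KAT2B_KD and 2 in KAT2AB_KD, where 1.4%, 0.8% and 4.79% of all genes did. GJA1 had log2 values of 0.11, −0.03 and −0.12 and GJB5 of −0.15, −0.20 and −0.18 in KAT2A_KD, KAT2B_KD and KAT2AB_KD, none past the threshold.

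Stage by stage, the double knockdown KAT2AB_KD carried the calls. In KAT2AB_KD Confluent cells GJB2 was 2.18-fold higher than in NT (log2 1.12 ± 0.21, adjusted p = 0.00420) and GJB6 2.40-fold higher (1.26 ± 0.23, 0.00358), so 2 of 4 connexins passed as higher where 1.39% of all genes did. In KAT2AB_KD Subconfluent cells GJB6 passed with a log2 fold change of 0.92 (0.0380), 1 of 4 where 1.86% of genes passed as higher, and GJB2 stood at 0.65 (0.113). In KAT2AB_KD Differentiated cells no connexin passed by edgeR, by DESeq2 or at an unadjusted p under 0.05, with log2 values of −0.29, 0.28, 0.24 and 0.27 for GJA1, GJB2, GJB5 and GJB6, while 2.74% of genes passed in either direction. Each of these calls needed its libraries: GJB6 in Subconfluent cells missed the threshold whichever of the 4 was left out, at 0.103 to 0.298. GJB2 in Confluent cells had 0.0971 without NT Confluent replicate 2, and GJB6 had 0.0570 and 0.0567 without NT Confluent replicate 1 or 2, the libraries with the high interferon sum.

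In the single knockdowns the values before differentiation were of like size, and no connexin passed by edgeR at any stage. In KAT2A_KD against NT GJB2 had a log2 fold change of 0.73 in Subconfluent cells (0.226) and 0.75 in Confluent cells (0.158), and GJB6 of 0.74 (0.344) and 0.87 (0.126). In KAT2B_KD against NT GJB2 had 0.85 (0.183) and 0.80 (0.115), and GJB6 0.66 (0.734) and 0.97 (0.0735). Of all genes, 0.343% passed in KAT2A_KD Subconfluent, 0.647% in KAT2A_KD Confluent, 0.0888% in KAT2B_KD Subconfluent and 0.463% in KAT2B_KD Confluent cells. In these 4 comparisons 2 connexins each had an unadjusted p under 0.05, and DESeq2 called 1, 2, 1 and 2 of them. At the Differentiated stage 1.22% of genes passed in KAT2A_KD and 4.85% in KAT2B_KD. By edgeR 1 connexin in KAT2A_KD and 0 in KAT2B_KD had an unadjusted p under 0.05, where 2062 and 2912 genes did. DESeq2 called 0 connexins in both at this stage, and 460 and 1060 genes. There GJB2 had log2 values of 0.53 in KAT2A_KD (0.253) and 0.20 in KAT2B_KD, and GJA1 of 0.28 in KAT2A_KD and 0.37 in KAT2B_KD (0.326). GJB6 had 0.21 in KAT2A_KD (0.776) and −0.20 in KAT2B_KD (0.708), the latter unlike in sign to its earlier stages. GJB5 lay below both NT libraries in 5, 5 and 4 of the 6 knockdown libraries at the 3 stages, and above both in 1, 0 and 2, without any test passing. GJA1 lay below both in 6, 3 and 2 and above both in 0, 3 and 3, also without any test passing.

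**Figure D2:**
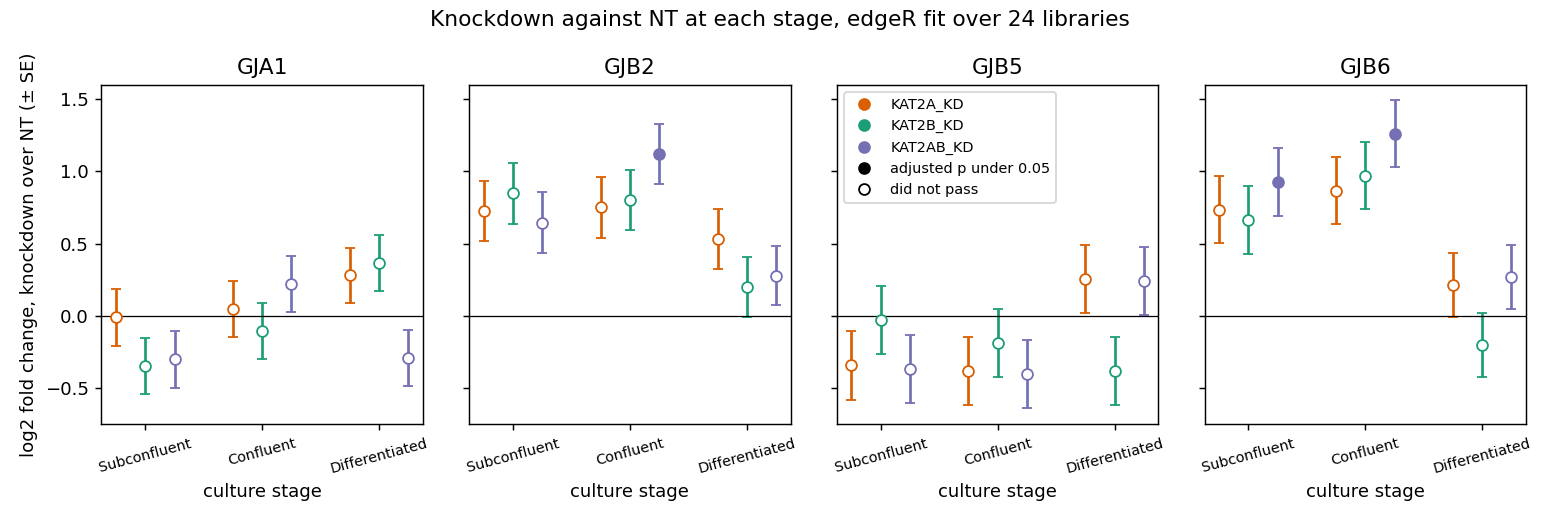
Log2 fold change of each connexin in the 3 knockdowns over NT at each culture stage, with its SE as bars; filled points have an adjusted p under 0.05 by edgeR, and open points did not pass. The filled points are GJB6 in KAT2AB_KD at the Subconfluent (0.92) and Confluent (1.26) stages and GJB2 in KAT2AB_KD at the Confluent stage (1.12). The Differentiated points of GJB2 and GJB6 lie nearer to 0 than their earlier ones, while those of GJA1 and GJB5 do not all do so.

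Whether the step into differentiation differed between a knockdown and NT was tested as the difference of the log2 fold changes. No connexin passed by edgeR. The values of GJB6 were −0.65 in KAT2A_KD (0.543), −1.17 in KAT2B_KD (0.0985) and −0.99 in KAT2AB_KD (0.157), and those of GJB2 −0.22, −0.60 and −0.84 (0.200), all below 0. DESeq2 called GJB6 in KAT2B_KD (0.0162) and GJB2 in KAT2AB_KD (0.0353), and edgeR called GJB6 in KAT2B_KD without NT Differentiated replicate 1 (0.0478). Of all genes 0.616%, 0.888% and 1.33% passed in KAT2A_KD, KAT2B_KD and KAT2AB_KD. The GJB5 values were 0.64 in both KAT2A_KD and KAT2AB_KD and did not pass.

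The knockdowns were also set against each other over all stages, and no connexin passed by edgeR or DESeq2. The largest difference was that of GJB6 between KAT2AB_KD and KAT2B_KD, a log2 fold change of 0.34 with a 95% interval of 0.07 to 0.61 (adjusted p = 0.103), the 1 member with an unadjusted p under 0.05 in these comparisons. It passed when KAT2AB_KD Differentiated replicate 1 was left out (0.0344). GJA1 differed between KAT2AB_KD and KAT2A_KD by −0.23 with an interval of −0.46 to 0.01 (0.517). Of all genes 2.7% passed between KAT2A_KD and KAT2B_KD, 0.336% between KAT2AB_KD and KAT2A_KD and 10.9% between KAT2AB_KD and KAT2B_KD. In the last of these, 4018 genes had an unadjusted p under 0.05.

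The balance among the connexins was followed as ratios of counts within a library, which need no library scaling. These are not corrected for length and are compared only between libraries. The median GJB2 to GJA1 ratio over 8 libraries was 4.34 at the Subconfluent, 5.53 at the Confluent and 1.47 at the Differentiated stage. GJB6 to GJB2 had medians of 0.0653, 0.0839 and 0.397, so both ratios were higher at the Confluent than at the Subconfluent stage and moved in opposite directions at the Differentiated stage. GJB6 to GJA1 had 0.284, 0.462 and 0.633. GJB5 to GJA1 stood at 0.379, 0.370 and 0.0312. Of the reads of the 4 genes together, GJB2 held a median of 72.5%, 74.9% and 47.0% along the stages, GJA1 16.7%, 13.6% and 32.6%, GJB6 4.67%, 6.13% and 19.3%, and GJB5 5.80%, 4.75% and 0.930%.

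Exact two-sided permutation tests that shuffled stage within genotype, or genotype within stage, were run on 20 contrasts of log2 ratios, with adjusted p over the 20. The smallest p they can give is 0.00154 for stage and 0.00926 for genotype. Between Differentiated and Confluent libraries GJB2 to GJA1 averaged 0.58 ± 0.31 and 2.34 ± 0.41 on the log2 scale (SD, n = 8 each), a difference of −1.76 (exact permutation adjusted p = 0.00772). GJB5 to GJA1 differed by −3.63 and GJB6 to GJB2 by 2.33 (both 0.00772), while GJB6 to GJA1 differed by 0.56 (0.0617). Between Confluent and Subconfluent libraries GJB6 to GJA1 differed by 0.66 (0.00772), GJB6 to GJB2 by 0.34 (0.0154) and GJB2 to GJA1 by 0.32 (0.0123).

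Against NT, GJB2 to GJA1 was higher in KAT2A_KD by 0.57 (0.0206) and in KAT2AB_KD by 0.81 (0.0206), with 0.65 in KAT2B_KD (0.0855). GJB6 to GJA1 was higher in KAT2AB_KD by 0.94 (0.0206), with 0.52 in KAT2A_KD (0.0617) and 0.51 in KAT2B_KD (0.159). The KAT2B_KD values average stages of unlike sign. They ran over −0.17 to 1.21 for GJB2 to GJA1 and −0.54 to 1.06 for GJB6 to GJA1. In KAT2A_KD the stages ran over −0.02 to 0.82 for GJB6 to GJA1. GJB6 to GJB2 did not pass in any knockdown, with −0.05, −0.13 and 0.13 in KAT2A_KD, KAT2B_KD and KAT2AB_KD. GJB5 to GJA1 was lower in KAT2A_KD, with a difference of −0.27 (0.0370), a call lost in 8 of the fits with a library left out, and its values of −0.18 in KAT2B_KD and −0.06 in KAT2AB_KD did not pass. So the beta connexins GJB2 and GJB6 stood higher against GJA1 in the double knockdown, and their ratio to each other moved with stage.

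**Figure D3:**
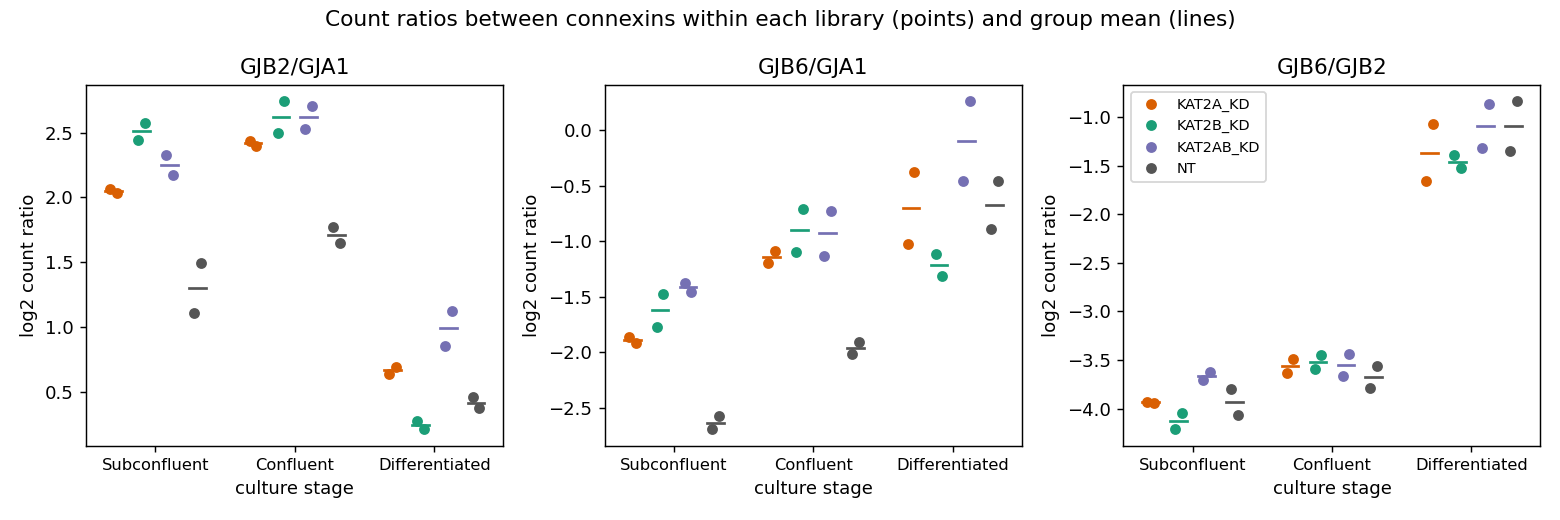
Log2 count ratios of GJB2 to GJA1, GJB6 to GJA1 and GJB6 to GJB2 within each library, by culture stage and genotype; points are libraries and lines group means. GJB2 to GJA1 drops and GJB6 to GJB2 climbs at the Differentiated stage, and the NT points lie lowest in both ratios to GJA1 before differentiation, while KAT2B_KD lies lowest at the Differentiated stage.

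The rest of the gap junction family moved in the same comparisons in a mixed way. Of 20 other connexins and pannexins (channel proteins of related topology), 12 were tested. Between Differentiated and Confluent cells 5 were higher and 1 lower in KAT2A_KD, 5 and 4 in KAT2B_KD, 8 and 1 in KAT2AB_KD, and 5 and 3 in NT, where the median log2 was 0.77 against −0.01 for all genes. Of all genes tested, 21.7% in KAT2A_KD, 20.3% in KAT2B_KD, 23.6% in KAT2AB_KD and 26.1% in NT passed as lower. GJA3, a lens connexin, rose in NT by log2 2.60 ± 0.22. It stood at 47.2 and 48.8 CPM in NT Differentiated cells, against 7.14 and 8.61 CPM in NT Confluent cells. GJB7 rose by 2.48 ± 0.24, to 82.1 and 78.5 CPM in NT Differentiated cells, against 16.3 and 12.5 CPM in NT Confluent cells. GJA4, a connexin of vessel walls, rose by 2.91 and GJA9 by 3.07. Whether reads of GJB2 were counted at GJA3, GJB7, GJA4 or GJA9 was not tested. GJC1 fell in every genotype, with log2 values of −1.20 in KAT2A_KD, −1.61 in KAT2B_KD, −1.13 in KAT2AB_KD and −1.49 in NT, the first lost without KAT2A_KD Confluent or Differentiated replicate 2 and the third without KAT2AB_KD Confluent replicate 1. The fall of GJA5, a connexin of the atria and arteries, in NT (−1.55, adjusted p = 0.0417) was lost whichever of the 4 libraries was left out. In KAT2AB_KD the higher calls of GJA5 and PANX1 were each lost in 3 of 4 such fits, and the 9 calls there became 5 without KAT2AB_KD Confluent replicate 1.

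**Figure D4:**
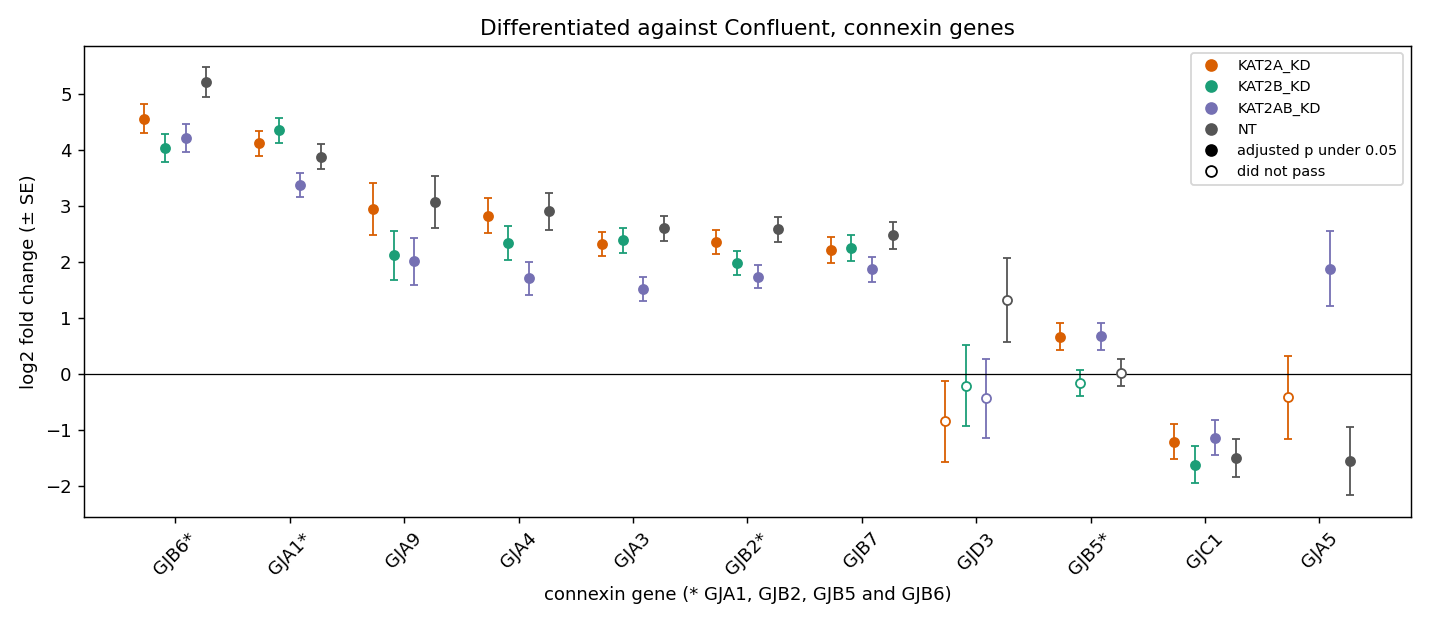
Log2 fold change of connexin genes, Differentiated over Confluent, in each genotype with its SE as bars, ordered by the NT value; filled points have an adjusted p under 0.05 by edgeR, and stars mark GJA1, GJB2, GJB5 and GJB6. GJB6 and GJA1 lead, GJC1 lies below 0 in all genotypes, and GJA5 in KAT2B_KD is left out because it had no read in Differentiated cells.

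Averaged over stages and set against NT, GJA3, GJB7 and GJA4 were higher in all 3 knockdowns. In KAT2AB_KD 5 of the 12 passed as higher and 1 as lower, in KAT2A_KD 3 and 1, and in KAT2B_KD 3 and 2, with medians of 0.79, 0.37 and 0.50 against 0.01, 0.00 and 0.01 for all genes. Of all genes, 2.7%, 0.546% and 1.62% passed as lower in KAT2AB_KD, KAT2A_KD and KAT2B_KD. The 5 calls in KAT2B_KD became 3 without KAT2B_KD Subconfluent replicate 1, KAT2B_KD Differentiated replicate 2, NT Subconfluent replicate 1 or 2 or NT Differentiated replicate 2, and 2 without KAT2B_KD Confluent replicate 2. GJA3 was higher by log2 1.36 in KAT2AB_KD (adjusted p = 9.33e-07), 1.02 in KAT2A_KD (0.000109) and 0.61 in KAT2B_KD (0.0116). GJB7 was higher by 0.90 in KAT2AB_KD (0.000204), 0.79 in KAT2A_KD (0.00277) and 0.68 in KAT2B_KD (0.00705). GJA4 was higher by 0.99, 0.95 and 0.82, the last lost in 7 of 12 fits with a library left out. The GJA3 call in KAT2B_KD was lost without KAT2B_KD Confluent replicate 2 (0.0568), and that of GJA9 in KAT2AB_KD was lost in 10 of 12 such fits.

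GJA5 went the other way at low levels. It stood at 0.246 to 1.60 CPM in the 6 KAT2A_KD libraries and 0.332 to 2.14 CPM in the 6 KAT2AB_KD libraries, against 1.04 to 4.24 CPM in the 6 NT libraries, a log2 fold change of −1.69 in KAT2A_KD (adjusted p = 0.0211, lost in 7 of 12 fits with a library left out) and −1.72 in KAT2AB_KD (0.00670). In KAT2B_KD it had no read in either Differentiated library. With 3 counts over both libraries taken as the floor, that is at least 10.2-fold lower than in NT Differentiated cells, where GJA5 averaged 1.27 CPM.

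Proteins that bind connexins or steer their traffic and turnover were counted from a list of 23 genes, 22 of them tested. Between Differentiated and Confluent cells 4 were higher and 6 lower in KAT2A_KD, 3 and 6 in KAT2B_KD, 5 and 4 in KAT2AB_KD and 7 and 5 in NT, with medians of 0.03, 0.02, 0.11 and 0.20. These are 18.2%, 13.6%, 22.7% and 31.8% higher and 27.3%, 27.3%, 18.2% and 22.7% lower, where 19.3% to 24.3% of all genes passed as higher and 20.3% to 26.1% as lower. Without KAT2A_KD Confluent replicate 1 the 10 calls in KAT2A_KD became 6. In NT the kinase MAPK3, which phosphorylates GJA1 protein, rose by log2 1.60. The caveolar protein CAV1 fell by 2.72, the actin-binding drebrin DBN1 by 1.80, the ubiquitin ligase SMURF2 by 1.24 and the kinase AKT1 by 1.03. Averaged over stages against NT, none passed in KAT2A_KD or KAT2B_KD by edgeR. There 1.4% and 0.8% of all genes passed as higher and 0.546% and 1.62% as lower. In KAT2AB_KD 9.09% of the 22 passed as higher and 4.55% as lower, where 4.79% and 2.7% of all genes did. In KAT2AB_KD the kinase PRKCA (1.11, adjusted p = 0.00421) and the ubiquitin ligase NEDD4 (0.57, 0.0100) passed as higher and SMURF2 (−0.41, 0.0197) as lower, the last lost in 7 of 12 fits with a library left out.

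The adherens and tight junction genes, which build the other contacts of the same membranes, were read for comparison, with 17 of 19 tested. Between Differentiated and Confluent cells 10 were higher and 2 lower in KAT2A_KD, 9 and 2 in KAT2B_KD, 9 and 2 in KAT2AB_KD and 10 and 3 in NT, with medians of 0.70, 0.70, 0.67 and 0.68. Higher were 58.8%, 52.9%, 52.9% and 58.8% of the 17, and lower 11.8%, 11.8%, 11.8% and 17.6%, beside the same shares over all genes. The 12 calls in KAT2A_KD became 7 without its Confluent replicate 1, and the 11 in KAT2AB_KD became 7 without its Confluent or Differentiated replicate 2. In NT the claudins CLDN4 and CLDN1, which seal tight junctions, rose by log2 4.72 and 4.14 and OCLN by 2.92, the nectin gene PVRL1 by 1.81, while CLDN7 fell by 2.27 and CTNNB1 by 1.14. Averaged over stages against NT, none passed in KAT2A_KD, where 1.4% of all genes passed as higher and 0.546% as lower. In KAT2B_KD 17.6% of the 17 passed as lower, beside 1.62% of all genes. In KAT2AB_KD 17.6% passed as higher and 5.88% as lower, beside 4.79% and 2.7% of all genes. In KAT2B_KD CLDN4 (−1.56), CLDN1 (−1.36) and CGN (−1.47) fell, the last lost without NT Subconfluent replicate 1 or KAT2B_KD Confluent replicate 1. In KAT2AB_KD CLDN7 (1.30), OCLN (0.61) and CLDN1 (0.44) rose and the cadherin CDH3 (−0.58) fell, with OCLN and CLDN1 each lost in 9 of 12 such fits. Of these 4 calls 2 were left without KAT2AB_KD Subconfluent replicate 1 or 2, NT Confluent replicate 1 or 2, or NT Differentiated replicate 2. CLDN1 thus had opposite signs in KAT2B_KD and KAT2AB_KD, where GJB2 was higher in both.

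Markers of the differentiated layers moved beside the connexins. All 12 such genes were higher in Differentiated than in Confluent cells of each genotype, and all 8 cell cycle genes were lower. Of all genes tested, 19.3% to 24.3% passed as higher and 20.3% to 26.1% as lower. Averaged over stages against NT, 5 of the 12 differentiation markers were higher and 0 lower in KAT2A_KD, 0 and 3 in KAT2B_KD, and 7 and 1 in KAT2AB_KD, with median log2 values of 0.72, −0.82 and 1.24. The shares of all genes higher and lower were 1.4% and 0.546% in KAT2A_KD, 0.8% and 1.62% in KAT2B_KD, and 4.79% and 2.7% in KAT2AB_KD. The summed level of the 12 differentiation markers in Confluent cells was 732 to 1038 CPM in KAT2A_KD, 767 to 844 CPM in KAT2B_KD and 1044 to 1082 CPM in KAT2AB_KD, against 574 to 778 CPM in NT. In Differentiated cells it was 22073 to 35295, 22866 to 30872 and 22013 to 28778 CPM in KAT2A_KD, KAT2B_KD and KAT2AB_KD, against 43109 to 52839 CPM in NT. At that stage the knockdown libraries lay below NT in this sum and above NT in GJB2. The most abundant markers weigh most in the sum: FLG, KRT10 and KRT1 reached 16340, 14246 and 11819 CPM. Taken singly against NT at that stage, 0 of the 12 passed in KAT2A_KD, 4 as lower in KAT2B_KD and 1 as lower in KAT2AB_KD. Of all genes 1.22%, 4.85% and 2.74% passed there in either direction. Before differentiation 5 of the 12 passed as higher in KAT2AB_KD Subconfluent and 7 in KAT2AB_KD Confluent cells, where 1.86% and 1.39% of genes did. In KAT2A_KD 1 and 0 passed as higher at these stages, and in KAT2B_KD 0 at both, where 0.0888% to 0.647% of genes passed. For the step into differentiation 7 of the 12 were lower in KAT2AB_KD than in NT, where 1.33% of genes passed in either direction. In KAT2A_KD and KAT2B_KD 0 of the 12 passed in that step. Averaged over stages, GJB2 was higher in KAT2B_KD, where the marker median was below 0, as well as in KAT2A_KD and KAT2AB_KD, where it was above 0. The part of the differentiation state in the connexin differences was not tested.

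The genes whose mean levels over the 12 groups followed each connexin most closely are given as a description. Groups share stage and NT, and log2 CPM was used. GJA1 was followed most closely by CDKN2B and CSTB (both Pearson r = 0.997), RNF141 (0.996) and CPEB2 (0.994). GJB2 was followed by GJB7 (0.995), GJA4 (0.992), NDRG1 (0.991) and GJB6 (0.989), so 3 of its 4 closest genes were connexins. Whether reads of GJB2 were counted at GJB7 or GJA4 was not tested. GJB6 was followed by TET2 and LIN7B (both 0.994), EFNA1 and FABP5 (both 0.993). For GJB5 the closest were TTC9C (0.949), TP53I3 (0.935), HIST1H2AE (0.919) and MIR6891 (0.918), looser than for the other 3. Among the members themselves r was 0.989 for GJB2 and GJB6, 0.978 for GJA1 and GJB6 and 0.951 for GJA1 and GJB2, and 0.689 to 0.716 for GJB5 with the others.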

How the data were processed

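RNA from 24 libraries of nTERT-1 keratinocytes was poly(A)-selected and sequenced as single-end reads from a directional kit, per the labels. The deposited table of the authors holds raw read counts per gene. Per the submitters' processing notes, FastQC, Bowtie2, featureCounts, DESeq2 and the build hg19 were used; versions, annotation, strand setting and the handling of multi-mapping reads are not given in the sources used here. A second deposited table of signal values equals the authors' counts divided by 1 size factor per library (largest relative deviation 4.98e-07). It served to check scaling and to restore symbols among 28 that a spreadsheet had turned into dates. A deposited sample table numbers the libraries of a group 2 and 3, called replicate 1 and 2 here, and names their genotype and stage. The count table has 1 column that matches no sample and was not used.

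In R 4.3.3, edgeR 4.0.16 filtered low counts (filterByExpr, 15757 genes left), scaled by TMM and fitted 1 quasi-likelihood model with 12 groups, 12 residual degrees of freedom and no covariate. P-values were adjusted by Benjamini-Hochberg over all genes within each of 29 comparisons. The averaged comparisons weight the 3 stages equally. Python 3.11.15 with numpy 2.4.6 and pandas 2.3.3 computed ratios (pseudocount 0.5 counts), exact permutation tests and promoter motifs. CPM per kilobase used the transcript lengths of GENCODE release 29 (3152 bases for GJA1, 2362 for GJB2, 1355 for GJB5 and 2133 for GJB6). The test was checked on simulated counts.

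Same-numbered libraries were not taken as paired in the main fit. The correlation between groups of their replicate differences had a median of 0.118. It passed 0.1, the threshold set for pairing, in 37 of 66 pairs of groups. The main fit thus leaves a weak likeness of same-numbered libraries out of account, which the replicate block among the alternatives takes in. Alternatives were DESeq2 1.42.0, its size factors in edgeR, no low-count filter, a pseudocount of 1, a replicate block and leaving out each library in turn. The 4 connexins, KAT2A and KAT2B are always named; of each other gene list up to 6 genes per comparison that passed are named, by lowest p, and for likeness the 4 genes of highest r whose log2 CPM averages 1 or more. GJA5 and PANX1 in the differentiation comparisons were named after their values were seen. Some genes counted in the lists are not reported here by name. The members, lists and alternatives were chosen with earlier results of these data known. GJA1 shares 5.72% of its 50-base words with the pseudogene GJA1P1, so reads could be placed at either.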

Additional observations from a re-analysis of the deposited data

How the results depend on the processing

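The differentiation values of GJA1, GJB2 and GJB6 passed in all 4 genotypes, and GJB2 averaged over stages in all 3 knockdowns, under DESeq2, its size factors in edgeR, no low-count filter, the replicate block and each fit with 1 library left out. The averaged GJB6 value of KAT2AB_KD did so too. Over all member values 346 of 368 with another setting kept direction and side of the threshold, 19 newly passed and 3 changed sign; with 1 library left out 494 of 536 did, 25 stopped passing, 3 newly passed and 14 changed sign. DESeq2 called 2 connexins for confluence in KAT2A_KD and in NT, 3 in KAT2AB_KD (adding GJA1 at an adjusted p of 0.00366), 1 and 2 in Subconfluent and Confluent KAT2A_KD against NT, 1 and 2 in KAT2B_KD against NT, 2 in KAT2AB_KD Subconfluent against NT, 2 in KAT2B_KD averaged over stages, and 1 in each of the differences of KAT2B_KD and KAT2AB_KD from NT in the differentiation step. Without the filter 1 connexin was called for confluence in KAT2A_KD, 1 in KAT2B_KD Confluent against NT and 2 in KAT2B_KD averaged over stages. With the replicate block KAT2B_KD averaged over stages had 2 called (GJB6 at an adjusted p of 0.0456), and the block changed no other member's call. The same-numbered libraries share only a number. The cause of these moves was not tested.

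GJA1 in KAT2A_KD against NT Subconfluent was −0.01 by edgeR and changed sign at 0.0092 with DESeq2's size factors, 0.0092 in DESeq2 and 0.0099 without the filter, all near 0. Leaving out 1 library gave 0 to 1 connexins called for confluence in KAT2AB_KD and in KAT2B_KD, 0 in KAT2AB_KD Subconfluent against NT, 0 to 2 in KAT2AB_KD Confluent against NT, 1 to 2 in KAT2A_KD and in KAT2B_KD averaged over stages, 0 to 1 between KAT2AB_KD and KAT2B_KD, and 0 to 1 in the KAT2B_KD difference in the differentiation step. Log2 values that did not pass changed sign in such fits. GJB5 ran over −0.29 to 0.045 and −0.17 to 0.26 for differentiation in KAT2B_KD and NT, −0.18 to 0.15 and −0.39 to 0.037 in KAT2B_KD against NT at the Subconfluent and Confluent stages, and −0.090 to 0.54 and −0.067 to 0.50 in KAT2A_KD and KAT2AB_KD against NT at the Differentiated stage. GJB6 at that stage ran over −0.081 to 0.59 in KAT2A_KD, −0.49 to 0.18 in KAT2B_KD and −0.019 to 0.65 in KAT2AB_KD. GJA1 ran over −0.045 to 0.15 in KAT2A_KD Confluent against NT and −0.060 to 0.021 in KAT2B_KD averaged over stages. All 40 ratio values with another setting kept their call. With 1 library left out, GJB5 to GJA1 ran over −0.045 to 0.029 for confluence, −0.32 to −0.22 in KAT2A_KD and −0.12 to 0.0011 in KAT2AB_KD against NT, GJB6 to GJA1 over 0.47 to 0.65 for differentiation and 0.41 to 0.62 in KAT2A_KD, and GJB6 to GJB2 over −0.15 to 0.047 in KAT2A_KD.

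Counts over all genes moved by more than 1.5 times with DESeq2 in 21 and without the filter in 22 of 29 comparisons. The counts with DESeq2 and without the filter, against edgeR, were 142 and 194 against 37 for KAT2A_KD Confluent against Subconfluent, 439 and 548 against 254 for KAT2B_KD Confluent against Subconfluent, 227 and 296 against 96 for KAT2AB_KD Confluent against Subconfluent, 353 and 430 against 142 for NT Confluent against Subconfluent, 136 and 223 against 54 for KAT2A_KD against NT Subconfluent, 181 and 302 against 102 for KAT2A_KD against NT Confluent, 460 and 506 against 192 for KAT2A_KD against NT Differentiated and 66 and 104 against 14 for KAT2B_KD against NT Subconfluent. They were 156 and 212 against 73 for KAT2B_KD against NT Confluent, 742 and 762 against 425 for KAT2AB_KD against NT Subconfluent, 614 and 747 against 359 for KAT2AB_KD against NT Confluent, 734 and 782 against 431 for KAT2AB_KD against NT Differentiated, 566 and 648 against 306 for KAT2A_KD against NT averaged over stages, 634 and 678 against 381 for KAT2B_KD against NT averaged over stages, 656 and 786 against 425 for KAT2A_KD against KAT2B_KD averaged over stages and 216 and 309 against 53 for KAT2AB_KD against KAT2A_KD averaged over stages. For the differences from NT they were 180 and 272 against 97 for KAT2A_KD minus NT in Differentiated against Confluent, 1 and 23 against 0 for KAT2A_KD minus NT in Confluent against Subconfluent, 357 and 346 against 140 for KAT2B_KD minus NT in Differentiated against Confluent, 2 and 18 against 0 for KAT2B_KD minus NT in Confluent against Subconfluent, 407 and 548 against 210 for KAT2AB_KD minus NT in Differentiated against Confluent and 41 without the filter against 0 for KAT2AB_KD minus NT in Confluent against Subconfluent. With 1 library left out, 88 of 188 such counts moved by more than 1.5 times. Against NT at the Subconfluent, Confluent and Differentiated stages they were 11 to 18, 35 to 57 and 17 to 99 in KAT2A_KD, 0 to 8, 20 to 51 and 281 to 534 in KAT2B_KD (764 at the last stage with all libraries), and 150 to 157, 150 to 289 and 67 to 326 in KAT2AB_KD. Averaged over stages they were 171 to 257, 235 to 348 and 725 to 1256. For the differences from NT in the differentiation step they were 45 to 83, 5 to 111 and 92 to 284. Groups of 2 libraries limit every per-stage comparison, and the lowest count of a connexin in any library was 940 for GJA1, 3028 for GJB2, 307 for GJB5 and 180 for GJB6.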

Other observations

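GJB7 reads moved with GJB2 reads closely. Counts of GJB7, a beta connexin, came to 2.64% to 5.09% of the GJB2 counts in all 24 libraries, a 1.93-fold span, with medians of 3.87%, 4.08% and 4.02% at the Subconfluent, Confluent and Differentiated stages. Over the same libraries GJB6 came to 5.39% to 56.0% of the GJB2 counts and GJB5 to 1.57% to 17.5%. GJA3, which lies beside GJB2 on chromosome 13, came to 1.40% to 5.08%, with a median of 2.46%. The medians of GJA4 and GJA9 were 0.666% and 0.700%. In the transcripts of GENCODE release 29 GJB2 and GJB7 share 8 words of 20 bases and none of 30 or 50 bases. With each of GJA3, GJA4 and GJA9, GJB2 shares 2 words of 20 bases. Whether reads of GJB2 were counted at GJB7, GJA3, GJA4 or GJA9 was not tested, and the percentages above are of counts, not levels per length.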
